A study of Mus musculus with 18 samples.

Results

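The 45 genes described here are S phase and mitosis genes, chosen by name because they act in DNA replication or in mitosis and mark cells that are passing through the cell cycle. All 45 were found among the 30072 genes of the deposited table, 14 with a role in S phase and 31 with a role in mitosis, and they were followed in heart RNA from 18 mice. The mice were outbred CD-1 littermates of both sexes, at least 8 weeks old, with no engineered allele, and every mouse, controls included, was anesthetised and had a cone-beam CT scan. Control mice (n = 6) received no treatment dose, and the other mice received 25 Gy to the whole heart in a single fraction and were studied 2 weeks (n = 6) or 6 weeks (n = 6) later. The labels call the tissue cardiac intraventricular septum and the radiation gamma rays, where the study's methods describe ventricular tissue and X-rays. Neither source gives the sex or litter of a single mouse, or the time at which the controls were collected. Age and time since the procedure therefore cannot be told apart from irradiation in the comparisons below.

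A cell copies its DNA in S phase and divides the copies in mitosis, and each step has its own set of proteins. In resting cells a repressor complex called DREAM sits on the promoters of these genes, and when growth signals and D-type cyclins release E2F factors, the replication genes are transcribed, followed by the mitotic genes under MYBL2 and FOXM1. Adult heart muscle cells have mostly left the cell cycle, so that transcripts of these genes are scarce in the adult ventricle and the cycling cells found there are more often endothelial cells, fibroblasts or macrophages than muscle cells. DNA damage halts the cycle through p53 and the inhibitor p21.

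Estimated counts summed to between 11522987 and 15501019 per mouse, and a floor of 3 counts corresponded to 0.194 to 0.26 CPM (counts scaled to the size of the library). That floor was taken on these totals, before the scaling factors given next, and covers counting error only. Scaling factors for library size, from the trimmed-mean method (TMM), were 0.844 to 0.991 in controls, 0.962 to 1.03 at 2 weeks and 1.04 to 1.13 at 6 weeks. The share of counts in mitochondrially encoded genes had a median of 23.2% in controls, 20.2% in the 2-week mice and 17.4% in the 6-week mice. The 7 cardiomyocyte markers summed to between 24328 and 35284 TPM (transcript abundance relative to length and depth) in every mouse, so the libraries carried the markers of heart muscle. CPM below are TMM-scaled, fold changes are log2 values with their standard error (SE), and a gene was called when its P value, adjusted over the 15054 genes tested, was below 0.05.

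At 6 weeks after irradiation, 35 of the 45 genes were higher than in controls and 1, the centromere histone gene Cenpa, was lower. Over all genes tested, 25.0% were called in this comparison, 13.5% upward and 11.5% downward. The rise reached 2-fold for 26 members, against 5.27% of all genes, and the median log2 fold change of the 45 was 1.14, against -0.02 for all genes. At 2 weeks only 3 members were called, the helicase genes Mcm2 and Mcm3 and the transcription factor gene E2f1, all upward, beside 5.02% of all genes that were called and 3.09% that rose, so that the share of members called was close to the background. Their median log2 fold change was then 0.41, against -0.0015 for all genes, and 40 of the 45 values were positive. That median was 0.62 without control mouse 1 and 0.27 without control mouse 3, with 42 and 37 positive values. Both comparisons rest on the same 6 control mice.

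**Figure D1:**
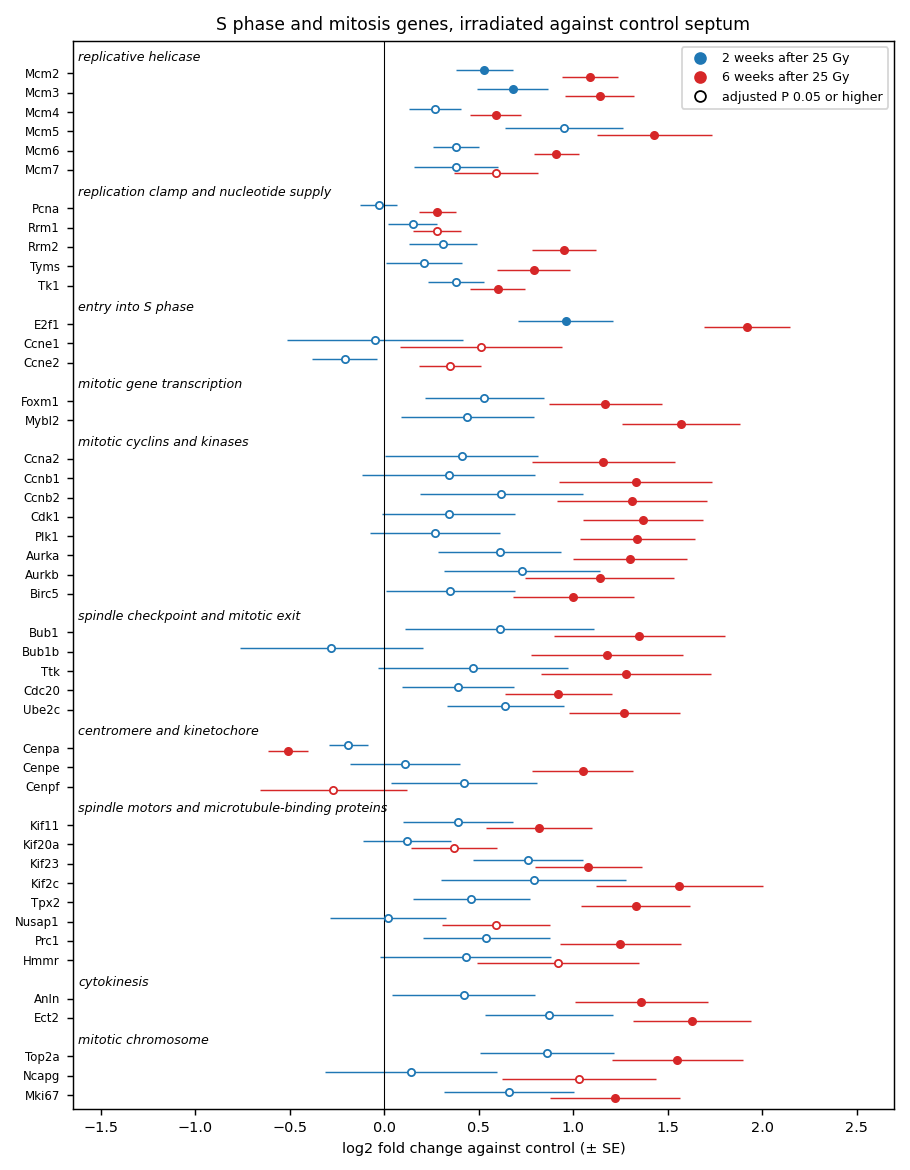
Log2 fold change against control on the horizontal axis, with bars of 1 SE, for each of the 45 genes at 2 weeks (blue) and 6 weeks (red), ordered by role; filled points have an adjusted P below 0.05. The red points lie to the right of 0 for 43 genes, with a median of 1.14, and the exceptions are Cenpa and Cenpf.

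Between 2 and 6 weeks 8 members rose and 0 fell, beside 5.33% of all genes called, 3.31% upward and 2.01% downward. The 8 were Mcm2, Mcm6, Rrm2, E2f1, Mybl2, Plk1, Bub1b and Cenpe. The median log2 difference of the 45 between the irradiated groups was 0.63, against -0.00075 for all genes, and 3 of the 8 rose over 2-fold, beside 0.963% of all genes. The median CPM was ordered control, 2 weeks, 6 weeks from low to high for 40 of the 45 genes. Without any adjustment, P in the same F tests was below 0.05 for 9 members at 2 weeks, 41 at 6 weeks and 26 between the irradiated groups. The share of all genes below that unadjusted threshold was not counted, so these 3 numbers cannot be set against a background.

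All 45 genes passed the filter of 0.23 CPM, scaled by library size alone, in at least 6 mice. However, 28 were under 1 TPM in the median control. After TMM scaling only 34 reached 0.23 CPM in all 6 controls, whereas 44 did so in all 6 mice at 6 weeks. In 10 the median control count was under 10. Levels can be compared between genes per transcript length, as TPM. On that scale Cenpa stood highest in controls (median 21.7 TPM), followed by the replication clamp gene Pcna (13.6), Tk1 (5.18), Mcm7 (4.86) and Mcm6 (4.11). Among the low ones were the mitotic checkpoint kinase gene Bub1 (0.123 TPM) and Ccne1 (0.135 TPM).

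Replication of DNA opens with the MCM2 to MCM7 proteins, which form the ring that unwinds the double helix. Of the 6 genes of this helicase, 5 rose at 6 weeks and 2 at 2 weeks, beside 13.5% and 3.09% of all genes. The same shares of all genes stand beside the counts of risen genes in each role group below. Mcm2 (ENSMUSG00000002870, chr6:88883474-88898780, minus strand, GRCm38) ran from 5.26 to 9.92 CPM in controls (median 6.74), from 8.42 to 11.5 in 2-week mice (median 9.99) and from 10.9 to 18.5 in 6-week mice (median 14.0). Every mouse at 6 weeks was above every control, while the mice at 2 weeks overlapped both other groups. The log2 fold change was 0.53 ± 0.15 (SE) at 2 weeks (adjusted P = 0.0496) and 1.09 ± 0.15 at 6 weeks (adjusted P = 4.74e-05). Mcm6 (chr1:128331590-128359664, minus strand) ranged from 8.88 to 14.2 CPM in controls (median 9.97), from 12.8 to 15.3 at 2 weeks (median 14.4) and from 17.7 to 26.3 at 6 weeks (median 19.6). The 6-week mice were apart from both other groups. Its change was 0.38 ± 0.12 at 2 weeks (adjusted P = 0.0758), 0.91 ± 0.12 at 6 weeks (adjusted P = 3.01e-05) and 0.53 ± 0.12 from 2 to 6 weeks (adjusted P = 0.0175).

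Mcm3 (chr1:20802968-20820312, minus strand) measured 2.65 to 5.53 CPM in controls (median 3.60), 5.22 to 7.49 at 2 weeks (median 6.48) and 6.80 to 12.1 at 6 weeks (median 8.48). Controls and 6-week mice did not overlap, and at 2 weeks 1 end of the range still touched the controls. Fold changes were 0.68 ± 0.19 (adjusted P = 0.0426) and 1.14 ± 0.18 (adjusted P = 0.000202) on the log2 scale. For Mcm5 the controls ran from 1.94 to 7.29 CPM (median 2.32), the 2-week mice from 4.17 to 9.30 (median 7.30) and the 6-week mice from 6.19 to 15.0 (median 9.58). The highest control was inside the range of both irradiated groups, and the log2 change at 6 weeks was 1.43 ± 0.31 (adjusted P = 0.00204). Mcm4 showed a smaller step, from 7.40 to 14.1 CPM in controls (median 11.4) to 13.5 to 21.2 at 6 weeks (median 15.4), with 12.0 to 15.1 at 2 weeks (median 13.2). Its groups overlapped, with a log2 change at 6 weeks of 0.59 ± 0.14 (adjusted P = 0.00373). Mcm7, whose exons overlap those of 2 genes on the other strand, had the same estimate of 0.59 with a larger SE of 0.22 and was not called (adjusted P = 0.0564).

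The replication clamp PCNA and the enzymes that make deoxynucleotides formed a group of 5 genes, of which 4 rose at 6 weeks and 0 at 2 weeks. Rrm2, the small subunit of ribonucleotide reductase that is made anew in S phase, was at 1.64 to 2.41 CPM in controls (median 1.93), 2.05 to 3.08 at 2 weeks (median 2.28) and 2.82 to 4.89 at 6 weeks (median 4.01). The 6-week mice were all above the controls and overlapped the 2-week mice. Rrm2 rose by 0.95 ± 0.17 on the log2 scale against controls (adjusted P = 0.00048) and by 0.64 ± 0.16 against 2 weeks (adjusted P = 0.0303). Its partner Rrm1, the large subunit, had a change of 0.28 ± 0.13 at 6 weeks that was not called (adjusted P = 0.124). Tyms, the thymidylate synthase gene, went from 1.85 to 5.41 CPM in controls (median 3.43) and 2.81 to 4.84 at 2 weeks (median 4.25) to 4.67 to 7.22 at 6 weeks (median 6.46). Only the highest control reached the 6-week range, and the log2 change was 0.79 ± 0.19 (adjusted P = 0.00497). Tk1, which salvages thymidine, had 4.46 to 8.98 CPM in controls (median 5.54), 6.26 to 9.82 at 2 weeks (median 8.00) and 8.23 to 10.9 at 6 weeks (median 9.17), with a log2 change of 0.60 ± 0.15 at 6 weeks (adjusted P = 0.00564). Each group overlapped the next. Pcna itself changed little, by 0.28 ± 0.10 at 6 weeks (adjusted P = 0.0441), and it is also a p53 target.

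E2f1 had the largest fold change of all 45 members at both times. It encodes the transcription factor that switches on replication genes at the start of S phase (ENSMUSG00000027490, chr2:154559407-154569892, minus strand). Controls lay between 0.518 and 2.15 CPM (median 1.08), 2-week mice between 1.98 and 2.86 (median 2.19) and 6-week mice between 3.24 and 5.55 (median 4.54). The 6-week mice were above all others, and 1 control reached into the 2-week range. E2f1 was up by 0.96 ± 0.25 on the log2 scale at 2 weeks (adjusted P = 0.0353), by 1.92 ± 0.23 at 6 weeks (adjusted P = 1.24e-05) and by 0.97 ± 0.20 from 2 to 6 weeks (adjusted P = 0.0141). The E-type cyclin genes Ccne1 and Ccne2, whose products drive the kinase CDK2 at S phase entry, were not called in any comparison, with log2 values at 6 weeks of 0.51 ± 0.43 (adjusted P = 0.425) and 0.35 ± 0.16 (adjusted P = 0.128). Ccne1 was measured at 0.0733 to 0.667 CPM in all mice, a range that includes the floor of 3 counts.

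**Figure D2:**
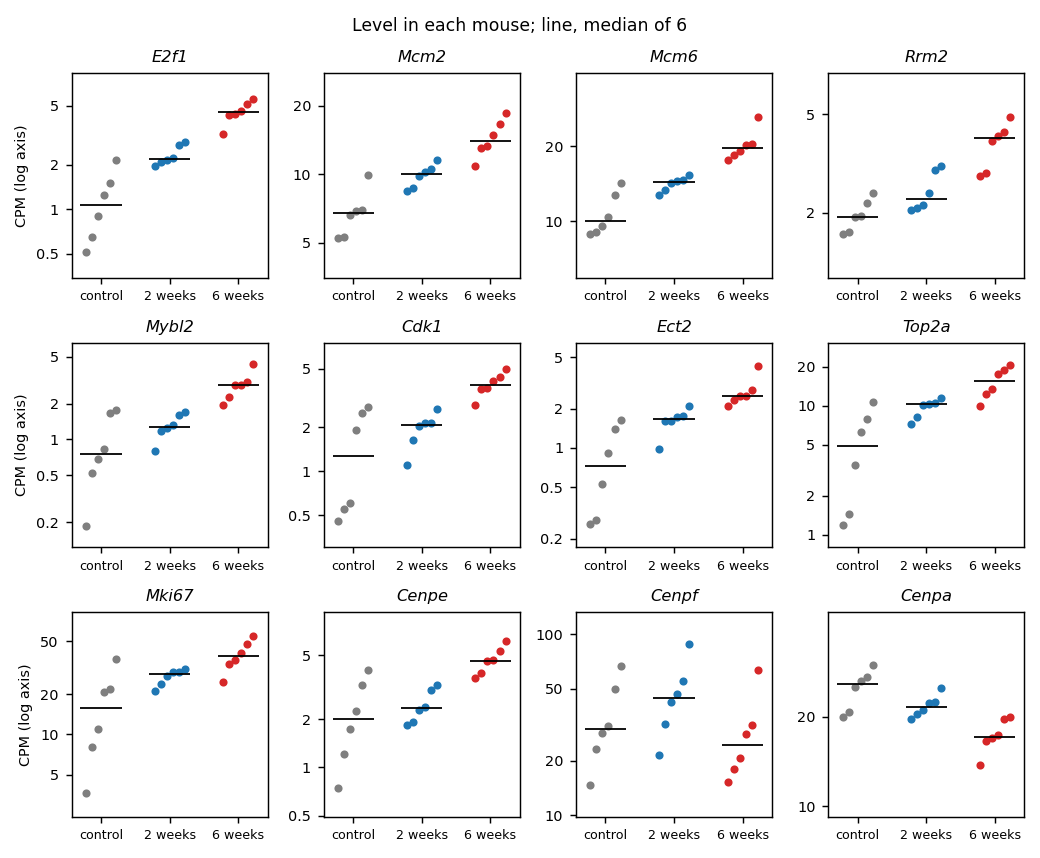
CPM on a log axis for 12 members in each of the 18 mice, with controls in grey, 2 weeks in blue and 6 weeks in red, the 6 mice of a group sorted by value and a line at their median. E2f1 and Mcm6 show 6-week mice above all others, the mitotic genes show controls that spread from 3.61 to 37.0 CPM in the case of Mki67, Cenpf overlaps in all groups and Cenpa falls.

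Transcription of the mitotic genes depends on FOXM1 and MYBL2, and both genes rose at 6 weeks. Mybl2 ran from 0.185 to 1.76 CPM in controls (median 0.757), from 0.802 to 1.70 in 2-week mice (median 1.29) and from 1.94 to 4.36 in 6-week mice (median 2.88). All 6-week mice stood above the mice of the other groups. Its log2 change was 1.57 ± 0.31 against controls (adjusted P = 0.00112) and 1.14 ± 0.29 against 2 weeks (adjusted P = 0.031). Foxm1 gave 1.12 to 5.01 CPM in controls (median 2.28), 2.92 to 5.5 at 2 weeks (median 3.37) and 3.54 to 7.40 at 6 weeks (median 6.58). These ranges overlapped, and the change at 6 weeks was 1.17 ± 0.30 (adjusted P = 0.00767).

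All 8 genes for mitotic cyclins and kinases rose at 6 weeks and 0 of them at 2 weeks. Cdk1, the kinase that drives entry into mitosis, was at 0.454 to 2.73 CPM in controls (median 1.26), 1.1 to 2.65 at 2 weeks (median 2.07) and 2.82 to 5.01 at 6 weeks (median 3.89). The 6-week mice cleared both other groups by a narrow margin over the highest control, and the log2 change was 1.37 ± 0.32 (adjusted P = 0.00371). Plk1, a polo-like kinase of spindle assembly, had 0.185 to 1.60 CPM in controls (median 1.23), 1.13 to 1.61 at 2 weeks (median 1.25) and 1.63 to 4.65 at 6 weeks (median 2.41). Control and 2-week mice overlapped, with 3 controls below all 2-week mice, and the 6-week mice lay above both groups. Plk1 rose by 1.34 ± 0.30 against controls (adjusted P = 0.00323) and by 1.07 ± 0.29 against 2 weeks (adjusted P = 0.0388). Aurka, the kinase of the spindle poles, was at 0.345 to 0.781 CPM in controls (median 0.618), 0.401 to 1.60 at 2 weeks (median 0.842) and 0.965 to 2.11 at 6 weeks (median 1.5). Controls and 6-week mice did not overlap, with a log2 change of 1.30 ± 0.30 (adjusted P = 0.00376).

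The cyclin genes Ccna2, Ccnb1 and Ccnb2 and the genes of the chromosomal passenger complex Aurkb and Birc5 were called at 6 weeks with log2 changes of 1.0 (Birc5) to 1.33 (Ccnb1). Ccnb1 was at 0 counts in control mouse 3, the kinesin gene Kif2c in control mouse 6, and the checkpoint gene Bub1 in both of these mice. Controls and 6-week mice overlapped in each of the 5 cyclin and passenger complex genes, and the 2-week and 6-week mice overlapped in all of them except Ccnb1.

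All 5 genes of the spindle checkpoint and of mitotic exit rose at 6 weeks and 0 at 2 weeks. Ube2c, the ubiquitin-conjugating enzyme that works with the anaphase-promoting complex, measured 0.925 to 2.71 CPM in controls (median 1.98), 1.44 to 4.55 at 2 weeks (median 2.62) and 2.36 to 5.87 at 6 weeks (median 4.71). The ranges overlapped, and the log2 change at 6 weeks was 1.27 ± 0.29 (adjusted P = 0.00373). Bub1, Bub1b and Ttk, the checkpoint kinases, and Cdc20, the activator of the anaphase-promoting complex, had log2 changes of 0.92 (Cdc20) to 1.35 (Bub1). Bub1b was the only gene of this group called between 2 and 6 weeks, at 1.46 ± 0.41 (adjusted P = 0.0451), with 2-week mice at 0.348 to 1.03 CPM and 6-week mice at 0.667 to 2.63.

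Centromere and kinetochore genes moved apart from each other. Cenpe, a kinesin that ties kinetochores to microtubules, was at 0.74 to 4.04 CPM in controls (median 1.99), 1.83 to 3.27 at 2 weeks (median 2.34) and 3.62 to 6.15 at 6 weeks (median 4.62). All 6-week mice exceeded the 2-week mice, while 1 control reached the 6-week range. Its log2 change was 1.05 ± 0.27 against controls (adjusted P = 0.00757) and 0.94 ± 0.26 against 2 weeks (adjusted P = 0.0443). Cenpa, the histone H3 variant that marks centromeres, fell from 19.9 to 30.0 CPM in controls (median 25.7) and 19.6 to 25.0 at 2 weeks (median 21.6) to 13.8 to 20.0 at 6 weeks (median 17.1). The lowest controls and the highest 6-week mice met at about the same value. Cenpa fell by 0.51 on the log2 scale (SE 0.11, adjusted P = 0.00164), a fall that was not called with scaling by library size alone (-0.24, adjusted P = 0.0633) or on log2(TPM + 1) (-0.12, adjusted P = 0.337). Cenpf, a kinetochore protein of large size, varied from 14.7 to 66.7 CPM in controls, 21.5 to 88.1 at 2 weeks and 15.2 to 63.4 at 6 weeks. Its groups covered the same range, and the log2 value at 6 weeks was -0.27 ± 0.39 (adjusted P = 0.674) and positive under scaling by library size alone and with TPM.

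Of the 8 genes for spindle motors and microtubule-binding proteins, 5 rose at 6 weeks. Tpx2, which nucleates microtubules around chromosomes, ran from 0.278 to 3.84 CPM in controls (median 2.11), from 2.17 to 3.60 at 2 weeks (median 3.26) and from 4.10 to 6.74 at 6 weeks (median 5.83). The 6-week mice were separate from the other groups, with a log2 change of 1.33 ± 0.29 (adjusted P = 0.00222). Prc1, which bundles the microtubules of the central spindle, had 0.833 to 6.44 CPM in controls (median 3.17), 3.61 to 5.95 at 2 weeks (median 4.79) and 4.99 to 10.5 at 6 weeks (median 8.02). It changed by 1.25 ± 0.32 (adjusted P = 0.00764), with ranges that overlapped. Kif23, a kinesin of the same central spindle, was at 0.37 to 2.28 CPM in controls (median 1.38), 1.54 to 3.38 at 2 weeks (median 2.40) and 2.22 to 4.59 at 6 weeks (median 2.80). The highest control just passed the lowest 6-week mouse, and the change was 1.08 ± 0.28 (adjusted P = 0.00857). Kif11 and Kif2c were also called, at 0.82 ± 0.28 and 1.56 ± 0.44 (adjusted P = 0.0399 and 0.0144). Kif20a, Nusap1 and Hmmr were not, at 0.37 ± 0.23, 0.59 ± 0.29 and 0.92 ± 0.43 (adjusted P = 0.261, 0.148 and 0.126).

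Both cytokinesis genes rose at 6 weeks with groups that did not overlap. Ect2, the exchange factor that activates RhoA at the cleavage furrow, was at 0.259 to 1.63 CPM in controls (median 0.723), 0.981 to 2.09 at 2 weeks (median 1.67) and 2.09 to 4.29 at 6 weeks (median 2.51). The 6-week mice lay above the other groups, at the edge of the highest 2-week mouse. Its log2 change of 1.63 ± 0.31 (adjusted P = 0.000846) was exceeded among the members only by that of E2f1. Anln, the furrow scaffold anillin, had 0.518 to 4.75 CPM in controls (median 2.68), 2.57 to 4.71 at 2 weeks (median 3.61) and 5.5 to 9.07 at 6 weeks (median 7.01). All 6-week mice were above the others, and the change was 1.36 ± 0.35 (adjusted P = 0.0081).

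Genes of the mitotic chromosome closed the list. Mki67, the proliferation marker Ki-67 that coats mitotic chromosomes, was at 3.61 to 37.0 CPM in controls (median 15.8), 21.3 to 31.1 at 2 weeks (median 28.5) and 24.9 to 55.2 at 6 weeks (median 38.6). Controls spread widely and overlapped both irradiated groups, and the log2 change was 0.66 ± 0.34 at 2 weeks (adjusted P = 0.293) and 1.22 ± 0.34 at 6 weeks (adjusted P = 0.0139). Top2a, the topoisomerase that untangles sister chromatids, was at 1.2 to 10.7 CPM in controls (median 4.85), 7.26 to 11.5 at 2 weeks (median 10.2) and 9.89 to 20.5 at 6 weeks (median 15.6). The highest control exceeded the lowest 6-week mouse, and the log2 change was 1.55 ± 0.35 (adjusted P = 0.00292). Ncapg, a condensin subunit, had a value of 1.03 ± 0.41 that was not called (adjusted P = 0.073).

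Counted by phase, S phase members were called upward in 10 of 14 cases at 6 weeks, with a median log2 change of 0.70. Mitosis members were called upward in 25 of 31, with a median of 1.22. Of all genes, 13.5% were called upward at 6 weeks. At 2 weeks the corresponding counts were 3 of 14 and 0 of 31, beside 3.09% of all genes, with medians of 0.34 and 0.43. Each of the 3 calls was lost when some single mouse was left out. The difference between these groups of genes was not tested.

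Control mice differed widely among themselves. The ratio of the highest to the lowest CPM within controls had a median of 4.31 over the 42 members without a 0, against 1.88 at 2 weeks and 2.09 at 6 weeks over all 45. Control mouse 1 was the highest control for 25 members and control mouse 3 the lowest for 23. Control mice 3, 5 and 6 were the 3 lowest controls in 24 of the 31 mitosis members and in 7 of the 14 S phase members. Mki67 was at 37.0, 20.7 and 21.8 CPM in control mice 1, 2 and 4 and at 3.61, 8.01 and 11 CPM in control mice 3, 5 and 6. Among the mice at 6 weeks, mouse 1 was highest for 28 members and mouse 5 lowest for 23. Over all 18 mice, the highest value belonged to a 6-week mouse for 43 members and the lowest to a control for 42.

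**Figure D3:**
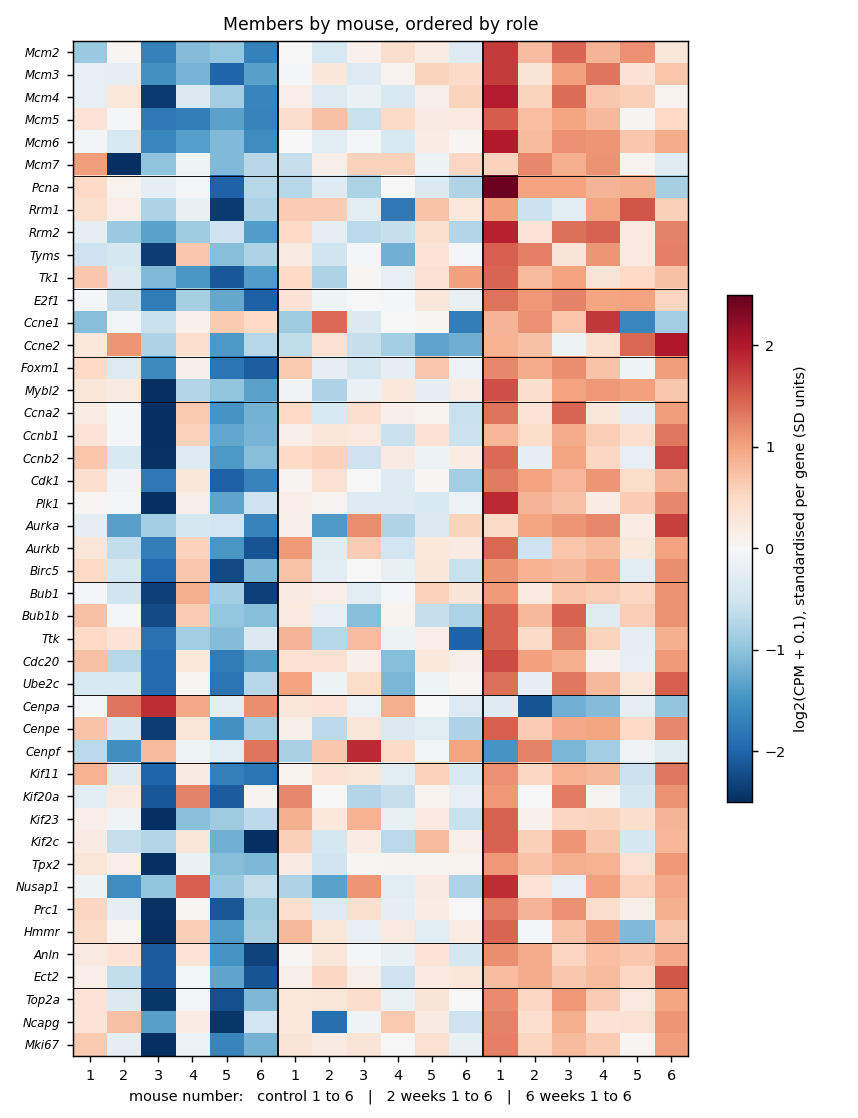
Heatmap of the 45 members (rows, by role) in the 18 mice (columns), as log2(CPM + 0.1) standardised for each gene over all mice, red above and blue below the gene's mean. Columns of control mice 3, 5 and 6 are blue in most rows, the 2-week columns are pale, and the 6-week columns are red in most rows, most of all in mouse 1; the Cenpa and Cenpf rows run otherwise.

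Ranges of controls and 6-week mice did not overlap for 12 members, all higher at 6 weeks, beside 5.80% of all genes that were higher and 3.43% that were lower. No member had separate ranges at 2 weeks against control, beside 1.96% of all genes above and 1.28% below, and 10 did between 2 and 6 weeks, all higher at 6 weeks, beside 2.27% above and 1.27% below. For the other 33 members the highest control reached the lowest 6-week mouse. When each of the 18 mice was left out in turn, 26 to 37 members were called at 6 weeks, beside 20.6% to 26.2% of all genes. Of the 36 members, 25 stayed called in every fit. The 11 others were Pcna, Ccna2, Ccnb1, Ccnb2, Aurkb, Birc5, Bub1, Bub1b, Ttk, Cdc20 and Kif11. Of the 36 calls, 10 were lost without control mouse 5, control mouse 6 or 6-week mouse 1, 9 without control mouse 3 or 6-week mouse 6, 7 without 6-week mouse 3, 4 without control mouse 2, 3 without 6-week mouse 4, and 0 without control mouse 1. Leaving out any other mouse cost 1 or 2 calls.

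At 2 weeks, where 3.01% to 5.87% of all genes were called in these fits, each of the 3 calls was lost in some. No member was called without control mouse 3, 5 or 6 or without 2-week mouse 1 or 5, 1 was called without control mouse 4, 2-week mouse 2, 3, 4 or 6, or 6-week mouse 3, and 6 were called without control mouse 1. Between 2 and 6 weeks 2.16% to 6.63% of all genes were called in these fits, and E2f1 and Mcm6 were called in every fit. The count fell from 8 to 2 without 2-week mouse 2 or 6-week mouse 1 or 3, to 3 without 2-week mouse 1, 3 or 6, to 4 without 2-week mouse 4 or 5 and to 5 without 6-week mouse 6.

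Promoter sequences were examined because the members move together and because 3 short motifs are known in promoters of cell cycle genes. The motifs were searched on both strands in windows of 300 bases (250 before and 50 from the annotated start on) from RefSeq on GRCm38.p6. They were the cell cycle homology region or CHR (TTTGAA), the CCAAT box bound by NF-Y (CCAAT), and E2F sites given by the words TTTCCCGC, TTTCGCGC, TTTGCCGC and TTTGGCGC. A window was found for 38 of the 45 members, and for none of Mcm4, Ccne2, Foxm1, Ccna2, Aurkb, Kif20a and Tpx2. In 18 of the 38 the start used for the window was the gene start in the RefSeq gene table. Positions and matches therefore depend on the start chosen. In 1 member window matches of different motifs overlapped. A match describes the letters of the window and does not show that a factor bound there.

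CHR was held by 20 of the 26 matched mitosis members (76.9%) and by 1 of the 12 matched S phase members (8.33%), Mcm2, beside 20.2% of the 27025 genes with a window. The CCAAT box was held by 21 mitosis members (80.8%) and 8 S phase members (66.7%), beside 41.1% of all genes. CHR and CCAAT box together were found in 18 mitosis members (69.2%), beside 8.97% of all genes. E2F words were held by 4 S phase members, Mcm3, Mcm5, Mcm6 and Mcm7, and by the mitosis members Cdk1 and Ncapg, beside 2.60% of all genes. No test was made of these shares. Cenpa and Cenpf, which did not rise, held both CHR and the CCAAT box.

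Printed here are the promoters of the 3 S phase and 3 mitosis members with the smallest adjusted P at 6 weeks among those with a match, to show where the motifs stand in genes that changed. Matches are in capitals, 5′ to 3′ on the strand of the gene, and a match on the other strand reads as the reverse complement. The windows are chr1:128359656-128359955 (minus) for Mcm6, chr6:88898731-88899030 (minus) for Mcm2, chr1:20820263-20820562 (minus) for Mcm3, chr3:27153829-27154128 (minus) for Ect2, chr5:30666636-30666935 (plus) for Cenpa and chr11:99024140-99024439 (minus) for Top2a.
Mcm6: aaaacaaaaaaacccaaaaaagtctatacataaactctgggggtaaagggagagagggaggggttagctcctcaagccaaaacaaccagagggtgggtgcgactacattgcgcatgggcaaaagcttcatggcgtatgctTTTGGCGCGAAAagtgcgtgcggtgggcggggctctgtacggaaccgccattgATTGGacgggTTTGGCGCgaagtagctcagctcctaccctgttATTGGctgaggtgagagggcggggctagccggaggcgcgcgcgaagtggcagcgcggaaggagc
Mcm2: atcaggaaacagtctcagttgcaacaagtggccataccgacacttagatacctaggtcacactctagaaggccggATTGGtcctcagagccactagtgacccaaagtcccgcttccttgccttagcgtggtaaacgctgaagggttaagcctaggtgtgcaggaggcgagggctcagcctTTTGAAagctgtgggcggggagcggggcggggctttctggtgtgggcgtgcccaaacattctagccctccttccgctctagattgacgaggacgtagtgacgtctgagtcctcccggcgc
Mcm3: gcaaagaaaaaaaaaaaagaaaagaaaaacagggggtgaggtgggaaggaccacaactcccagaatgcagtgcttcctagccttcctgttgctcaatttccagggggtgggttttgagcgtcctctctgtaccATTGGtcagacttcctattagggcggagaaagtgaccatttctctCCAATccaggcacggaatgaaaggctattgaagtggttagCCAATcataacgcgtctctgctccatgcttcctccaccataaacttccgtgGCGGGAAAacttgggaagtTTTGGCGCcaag
Ect2: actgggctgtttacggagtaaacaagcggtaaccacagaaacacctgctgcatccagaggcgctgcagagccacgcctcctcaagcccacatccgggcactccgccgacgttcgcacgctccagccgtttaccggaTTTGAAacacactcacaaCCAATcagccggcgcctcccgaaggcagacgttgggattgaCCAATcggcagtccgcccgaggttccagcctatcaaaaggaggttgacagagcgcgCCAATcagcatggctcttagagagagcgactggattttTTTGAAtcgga
Cenpa: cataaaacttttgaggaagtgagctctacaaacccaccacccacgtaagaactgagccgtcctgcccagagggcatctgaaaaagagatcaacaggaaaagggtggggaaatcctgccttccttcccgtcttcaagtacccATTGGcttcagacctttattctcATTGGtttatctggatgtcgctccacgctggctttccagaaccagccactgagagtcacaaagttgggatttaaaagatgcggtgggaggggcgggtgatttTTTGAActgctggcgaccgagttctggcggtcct
Top2a: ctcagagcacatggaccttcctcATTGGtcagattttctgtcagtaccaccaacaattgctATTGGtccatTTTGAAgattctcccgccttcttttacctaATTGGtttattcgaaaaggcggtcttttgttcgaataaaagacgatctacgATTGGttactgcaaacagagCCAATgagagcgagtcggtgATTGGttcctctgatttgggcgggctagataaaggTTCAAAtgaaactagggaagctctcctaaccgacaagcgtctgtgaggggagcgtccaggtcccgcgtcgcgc
Mcm6 has 3 E2F matches, 2 of which overlap each other, and 2 CCAAT boxes, and Mcm3 has 2 E2F matches and 3 CCAAT boxes. Mcm2 has 1 CHR and 1 CCAAT box. Top2a, with 6 CCAAT boxes and 2 CHR, rose by 1.55 on the log2 scale, Ect2, with 3 and 2, rose by 1.63, and Cenpa, with 2 and 1, fell.

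**Figure D4:**
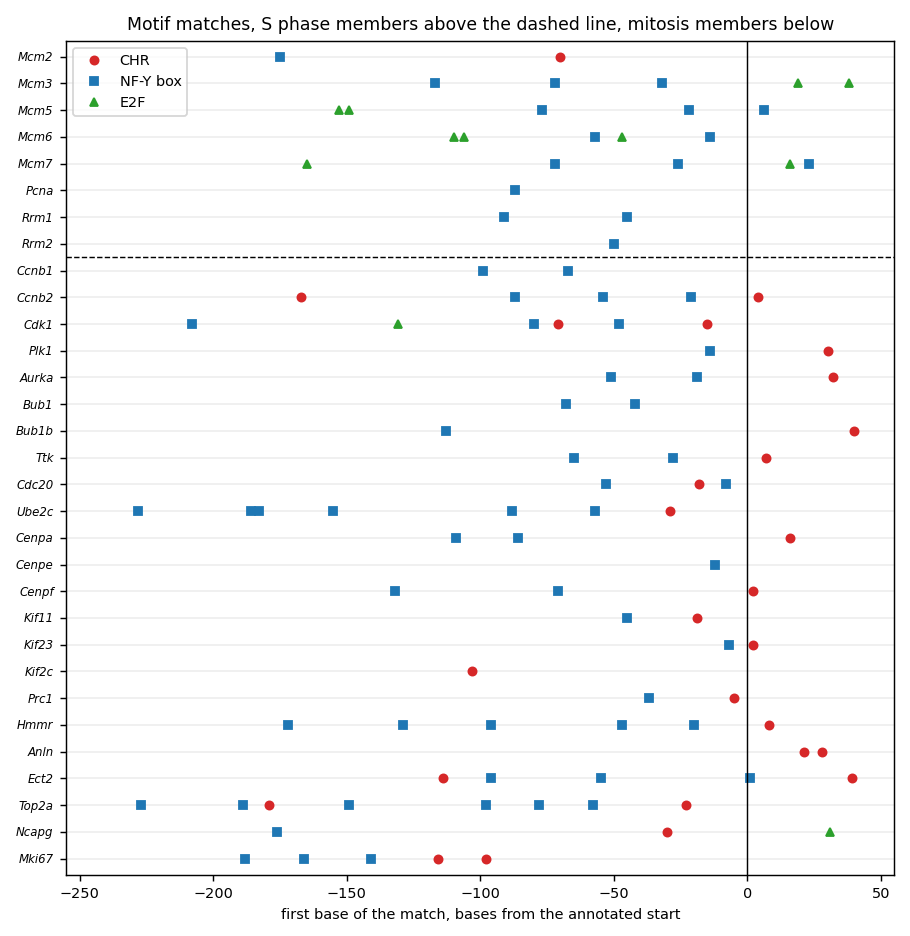
Positions of motif matches in the windows of the members that hold any, in bases from the annotated start (vertical line), for CHR (red circles), the CCAAT or NF-Y box (blue squares) and E2F words (green triangles); where a member has several windows the first listed is drawn. CHR matches stand below the dashed line, in mitosis members, except for Mcm2, at a median of -15 bases from the start, and CCAAT boxes lie further upstream, at a median of -72.

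Other genes of replication and mitosis were counted beside the members. Among 34 other replication genes, 2 rose at 2 weeks and 19 at 6 weeks, with none lower, and the median log2 change was 0.32 and 0.63. Over all genes tested, 3.09% rose and 1.93% fell at 2 weeks, and 13.5% rose and 11.5% fell at 6 weeks. The 2-week share of this list, 5.88%, was close to the 5.02% of all genes called. Those with the smallest adjusted P in both comparisons were Uhrf1, which keeps DNA methylation through replication (1.17 ± 0.27 and 1.75 ± 0.26, adjusted P = 0.0166 and 9.47e-05), Cdt1, which loads the helicase (0.72 ± 0.20 and 1.29 ± 0.19, adjusted P = 0.0424 and 9.31e-05), and Chaf1b, a chromatin assembly factor (1.03 ± 0.34 and 1.71 ± 0.31, adjusted P = 0.0838 and 0.000565). Uhrf1 was apart from the controls at both times, with 1.30 to 7.23 CPM in controls, 7.26 to 10.8 at 2 weeks and 10.9 to 20.4 at 6 weeks.

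Of 57 other mitosis genes 56 passed the filter. At 2 weeks 3 rose and 2, Ncapd2 and Sgo2a, fell, by 0.35 and 0.42 on the log2 scale (adjusted P = 0.0461 and 0.0431). The share that rose was 5.36%, beside 3.09% of all genes that rose and 1.93% that fell. At 6 weeks 33 rose and none fell, with a median of 1.04, beside 13.5% of all genes that rose and 11.5% that fell. Ckap2, a spindle protein, rose by 1.52 ± 0.29 at 2 weeks (adjusted P = 0.00592) and by 1.99 ± 0.28 at 6 weeks (adjusted P = 5.79e-05), and the controls were below all irradiated mice. Arhgap11a and Troap were at 1.26 ± 0.17 and 1.91 ± 0.31 at 6 weeks (adjusted P = 5.29e-05 and 0.000192), and Troap was called at 2 weeks too (1.24 ± 0.34, adjusted P = 0.0401). Gtse1, which is expressed in G2 and S phase and holds p53 down, had 0 to 5 counts in control mice, 9 to 67 at 2 weeks and 28 to 89 at 6 weeks. The fitted log2 change of 3.39 ± 0.74 at 2 weeks (adjusted P = 0.0114) and of 4.21 ± 0.67 at 6 weeks (adjusted P = 0.000125) rests on these few control counts.

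The 30 genes upstream, regulators of G1 and components of the E2F and DREAM complexes, moved in both directions, with 4 higher and 3 lower at 2 weeks and 10 higher and 4 lower at 6 weeks. Of all genes, 3.09% were higher and 1.93% lower at 2 weeks, and 13.5% higher and 11.5% lower at 6 weeks. Ccnd1, the D1 cyclin, was at 17.3 to 33.2 CPM in controls, 62.5 to 95.4 at 2 weeks and 100.6 to 164.8 at 6 weeks, with no overlap between any of the groups (log2 change 1.64 ± 0.14 and 2.35 ± 0.14, adjusted P = 1.06e-06 and 7.18e-09). Cdkn1a, which encodes the p53-driven inhibitor p21, rose at the same time, from 3.25 to 12.8 CPM in controls to 23.7 to 51.4 at 2 weeks and 33.2 to 90.5 at 6 weeks (2.43 ± 0.30 and 3.09 ± 0.30, adjusted P = 0.000121 and 1.47e-06). Cdk6, the partner kinase of D cyclins, rose by 0.48 ± 0.12 and 1.21 ± 0.11 (adjusted P = 0.0221 and 9.55e-07). Cdkn1c, the inhibitor p57, fell at both times, with log2 values of -1.18 ± 0.18 and -1.73 ± 0.19 (adjusted P = 0.00109 and 4.75e-06). The activator genes E2f2 and E2f3, the repressor gene E2f7 and the pocket protein gene Rbl1 were among those higher at 6 weeks.

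Markers of other cell types moved in the same mice, and their part in these results was not tested. In bulk tissue fewer cells of a type and less RNA per cell cannot be told apart. As background to the marker counts, 13.5% of all genes were higher and 11.5% lower at 6 weeks. At 2 weeks these shares were 3.09% and 1.93%. Of 8 macrophage markers, 7 were higher at 6 weeks and 1 at 2 weeks, with a summed level of 102.2 to 365.6 TPM in controls (median 162.7), 246.9 to 332.9 at 2 weeks (median 295.9) and 394.2 to 566.5 at 6 weeks (median 455.6). The highest macrophage sum among controls belonged to control mouse 4, the highest control for 12 members, and the lowest to control mouse 3. Control mouse 1, the highest control for 25 members, had the highest macrophage sum among controls after mouse 4 (198.3 TPM). It also had the highest endothelial sum among controls (277.4 TPM). Without control mouse 4, 36 members were called at 6 weeks, beside 26.2% of all genes. Of 7 endothelial markers, Pecam1, Cdh5 and Erg were higher and Tek and Tie1 lower at 6 weeks, with sums of 193.4 to 277.4, 256.8 to 303.3 and 313.6 to 453.2 TPM in the 3 groups. On the TMM scale the median log2 change at 6 weeks was 1.08 for the macrophage markers and 0.07 for the endothelial markers, and the median of all genes was shifted by 0.29 when measured as log2(TPM + 1).

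T and NK cell markers summed to 0.545 to 1.57 TPM in controls and 3.06 to 8.93 TPM at 6 weeks, with 3 of the 4 tested of 8 listed called higher and Ncr1 at 0 counts in all controls. B cell markers summed to 0.381 to 2.10 and 1.12 to 2.91 TPM, with 2 of 3 tested of 5 listed higher. For neutrophils 1 of 2 tested of 5 listed was higher, with sums of 0.347 to 7.52 and 2.00 to 7.35 TPM. On the TMM scale all 7 cardiomyocyte markers were lower at 6 weeks, with a median log2 change of -0.46, and of 6 fibroblast markers 2 were lower. As TPM the cardiomyocyte sum fell less, from a median of 31765 in controls to 29180 at 6 weeks, or 0.919 of control. Smooth muscle and pericyte markers gave 0 calls of 6, and of 4 tested erythroid markers 1, Hba-a1, was lower. Of all genes, 25.0% were called at 6 weeks, 13.5% upward and 11.5% downward.

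The members summed to 68.1 to 128.0 TPM in controls (median 83.1), 120.6 to 142.6 at 2 weeks (median 125.8) and 141.8 to 230.9 at 6 weeks (median 178.6). Such sums weigh abundant genes most, and Cenpa alone had a median of 21.7 TPM in controls and 20.6 TPM at 6 weeks. Without the TMM factors the median of all genes moved by 0.15 at 2 weeks and 0.24 at 6 weeks on the log2 scale. The fit without them called 5 and 42 members, beside 11.9% and 38.7% of all genes, so that the share of members called at 2 weeks was close to the background.

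**Figure D5:**
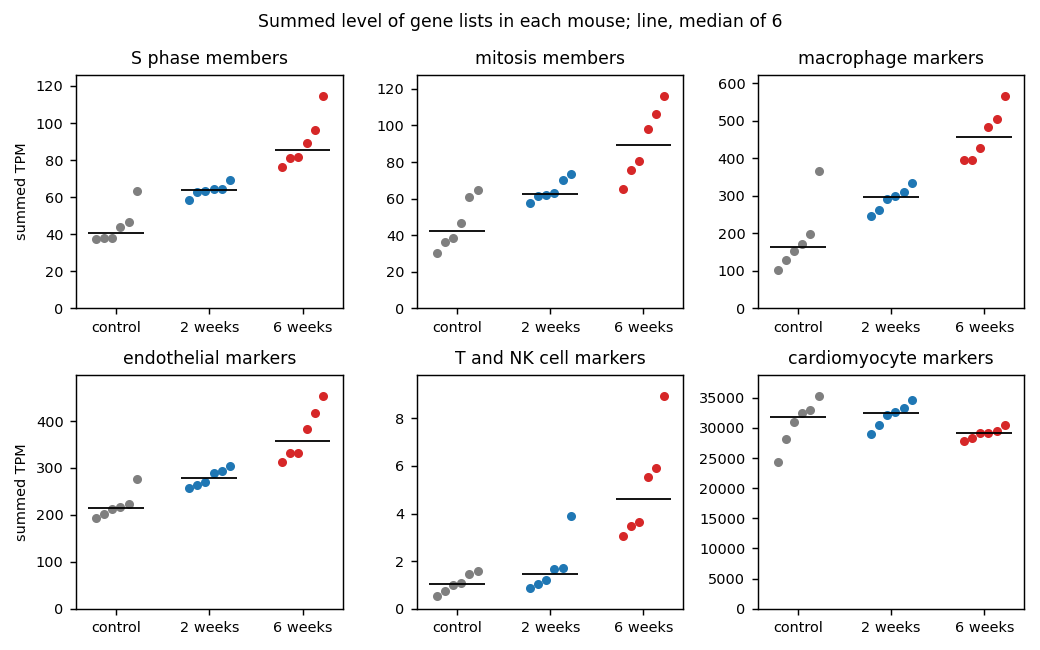
Summed TPM of 6 gene lists in each mouse, with controls in grey, 2 weeks in blue and 6 weeks in red and a line at the median of 6 mice; each panel has its own axis, which starts at 0. Median sums of S phase members, mitosis members, macrophage markers and endothelial markers are higher at 6 weeks than in controls, on a scale where the median gene also shifts upward (0.29 as log2(TPM + 1)), and cardiomyocyte sums stay between 24328 and 35284.

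The exons of 13 members overlap those of another gene in GENCODE M21, and 6 share over 10% of their exonic bases with 1 such gene on the other strand (Ccne2, Ccna2, Ube2c, Kif20a, Prc1 and Ncapg). Whether the quantification used strand is not given in the sources used here, so values of these 6 are less certain.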

How the data were processed

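The authors aligned the reads to GRCm38, ran Salmon 1.0 for transcript abundances, which were combined by gene, and deposited an estimated count and a TPM value for each Ensembl gene and mouse, neither normalized between mice. TPM is scaled for transcript length and depth within a mouse and was used here for levels between genes and for alternatives. Symbols were found for 29301 genes, and 0 columns belonged to no sample. Estimated counts (90.1% of the members' values whole to within 0.001) were rounded and fitted in R 4.3.3 with edgeR 4.0.16: genes at 0.23 CPM or more in at least 6 mice, TMM, a quasi-likelihood model of the 3 groups, two-sided F tests and Benjamini-Hochberg adjustment over all 15054 genes in each comparison. Each mouse was a separate sample, and no batch is named. Totals ran from 11522987 to 15501019 counts.

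The members, their role groups, the related lists and the marker lists were chosen with earlier results of these data known. Values are given in full for the 24 members with the smallest adjusted P in any comparison, and from each related list for the 3 genes with the smallest adjusted P in each comparison with control, besides Cdkn1a and Gtse1; Ncapd2, Sgo2a and the further G1 genes were named after their values were seen. Coordinates are from GENCODE M21 and promoters from RefSeq. The code was tested on simulated counts. Alternatives were DESeq2 1.42.0, limma 3.58.1 with voom and sample weights, other scalings and filters, TPM with pseudocounts of 1 and 0.1, a looser threshold, the replicate number as a block, and leaving out each mouse.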

Additional observations from a re-analysis of the deposited data

Results flagged for a closer look

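In 9 of the 135 groups of 6 mice examined over the members (chance gives about 1 in 20, or 6.75), 1 mouse lay far from the other 5. High values were Mcm2 in control mouse 2 (9.92 CPM, next 6.97), Nusap1 in control mouse 4 (1.94, next 1.04), Kif20a in 2-week mouse 1 (4.40, next 3.12), Mcm6 in 6-week mouse 1 (26.3, next 20.4), Cenpf in 6-week mouse 2 (63.4, next 31.5) and Ect2 in 6-week mouse 6 (4.29, next 2.78). Low values were Cdc20 in 2-week mouse 4 (1.70 CPM, next 2.99), Tpx2 in 2-week mouse 2 (2.17, next 3.20) and Birc5 in 6-week mouse 5 (1.29, next 2.40).

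The change against control differed between 2 and 6 weeks, by the test of 6 against 2 weeks in edgeR's quasi-likelihood fit, for 8 members. The log2 difference was 0.56 for Mcm2, 0.53 for Mcm6, 0.64 for Rrm2, 0.97 for E2f1, 1.14 for Mybl2, 1.07 for Plk1, 1.46 for Bub1b and 0.94 for Cenpe.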

How the results depend on the processing

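In the comparison in which it was called, no member changed direction under any alternative. With library sizes alone 5 members were called at 2 weeks, 42 at 6 weeks and 13 between 2 and 6 weeks, beside 11.9%, 38.7% and 7.98% of all genes, and the median of all genes moved by 0.11 in the last. Without a filter the counts were 1, 32 and 5 (2.7%, 15.9% and 2.67% of all genes), with DESeq2 5, 37 and 12 (8.08%, 26.3% and 7.73%), and at an adjusted P below 0.10 they were 5, 38 and 14 (9.0%, 31.9% and 9.80%). On log2(TPM + 1) they were 10, 42 and 12, beside 18.7%, 49.6% and 7.13% of all genes, and on log2(TPM + 0.1) 13, 42 and 6, beside 20.1%, 49.6% and 4.99%, so that the larger counts against control came with more calls over all genes. Without mitochondrially encoded genes, with the literal reading of the filter and with voom weights they were 2 to 3, 36, and 8 to 11. Of all genes 4.77% to 5.47%, 24.3% to 26.0% and 5.12% to 7.94% were called in these 3 settings. Leaving out each mouse gave 0 to 6, 26 to 37 and 2 to 11 calls. The shares of all genes called were then 3.01% to 5.87%, 20.6% to 26.2% and 2.16% to 6.63%. At 6 weeks 30 of the 36 members stayed called in all alternatives other than leaving out mice, against 1 of 3 at 2 weeks and 2 of 8 between the irradiated groups. The causes were not tested. In 10 members the median control count was under 10.

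The labels do not say whether mice with the same replicate number are related. Deviations of same-numbered mice correlated at -0.0828 to 0.106 (median 0.0333), beside a median of -0.0154 for differently numbered mice. Of the 18 same-numbered pairs 2 passed 0.1, and 3 of 18 mice correlated best with their own number. No pairing was evident, but correlations over all genes cannot exclude it. With the replicate number as a block 2, 35 and 5 members were called (3.89%, 23.6% and 3.60% of all genes).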
